A study of Mus musculus with 7 samples.

Results

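The lncRNAs described here are 10 well-known transcripts that act in the nucleus, come from imprinted regions or host small RNAs: Malat1, Neat1, Meg3, Rian, Mirg, Miat, H19, Kcnq1ot1, Snhg11 and Snhg14. They were taken by name from the 50354 gene names of a table of expression levels, and all 10 have at least 1 locus there, 19 loci in all. The table comes from RNA-Seq of rRNA-depleted total RNA of cortex, skeletal muscle, liver, kidney and 3 fat depots, namely interscapular brown adipose tissue (BAT), subcutaneous adipose tissue (SCAT) and visceral adipose tissue (VAT). All tissues were from wild-type (wt) mice aged 36 weeks on the diet labelled NCD, and each tissue is a single library, so no difference between tissues given here has a replicate check or a test. The strain is C57BL/6 in the labels and C57BL/6N in the methods. The labels do not say whether the tissues came from the same mouse or from pools. Levels are FPKM, fragment counts scaled to transcript length and library size, as the authors deposited them. Fragment numbers are not listed, and sequencing depth is therefore unknown. A locus here is a stretch of assembled transcripts, which can carry several gene names, and its listed bounds are often those of a group of neighbouring loci.

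lncRNAs are long transcripts without a known protein product. Malat1 accumulates in nuclear speckles, which are stores of splicing factors, and Neat1 is the RNA scaffold of paraspeckles. In imprinted regions, genes are expressed from the maternal or the paternal chromosome alone, and these regions often carry a long non-coding transcript: Meg3, Rian and Mirg from the maternal copy of the Dlk1-Dio3 region, H19 from the maternal copy beside Igf2, Kcnq1ot1 from the paternal copy within Kcnq1, and Snhg14 from the paternal copy between Snrpn and Ube3a. Several of them are hosts, whose introns or exons release microRNAs or small nucleolar RNAs.

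Of the 10 lncRNAs, 9 have a locus with a value and 8 reached 1 FPKM in any tissue. Enrichment was called where a tissue had 1 FPKM or more and exceeded each of the other 6 tissues by 2 or more in log2(FPKM + 0.1), which is 4-fold. By this rule 5 lncRNAs were enriched in cortex (Meg3, Rian, Mirg, Miat and Snhg11) and 1 in muscle (H19). Among all 19087 named genes with 1 FPKM or more in any tissue and a value in all, 8.34% were enriched in cortex, 3.63% in muscle and 23.0% in any tissue, and among the 1612 lncRNA names of these the share in cortex was 9.06%. Cortex held the highest FPKM of 5 of the 9 lncRNAs, kidney that of 2 (Malat1 and Kcnq1ot1) and muscle that of 2 (H19 and Snhg14), beside 20.7%, 10.4% and 23.3% of all named genes. Kcnq1ot1 is below 1 FPKM and so would not be among the genes of these shares, and its tissue order is not interpreted. The median log2 ratio of the highest tissue over the next was 3.72 for the 8 lncRNAs with 1 FPKM, 3.53 with Kcnq1ot1 and 0.72 for all named genes with 1 FPKM. The median of the specificity index tau, which is 0 for a gene with 1 level in all tissues and 1 for a gene found in a single tissue, was 0.980 for the lncRNAs, with or without Kcnq1ot1, and 0.694 for these named genes. These lncRNAs were not drawn at random, so both medians only describe them. The enriched lncRNAs numbered 6, with 5 in cortex, also without the VAT and SCAT libraries and without the BAT library. No call could be lost there, because none of the 6 was highest in these libraries.

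**Figure D1:**
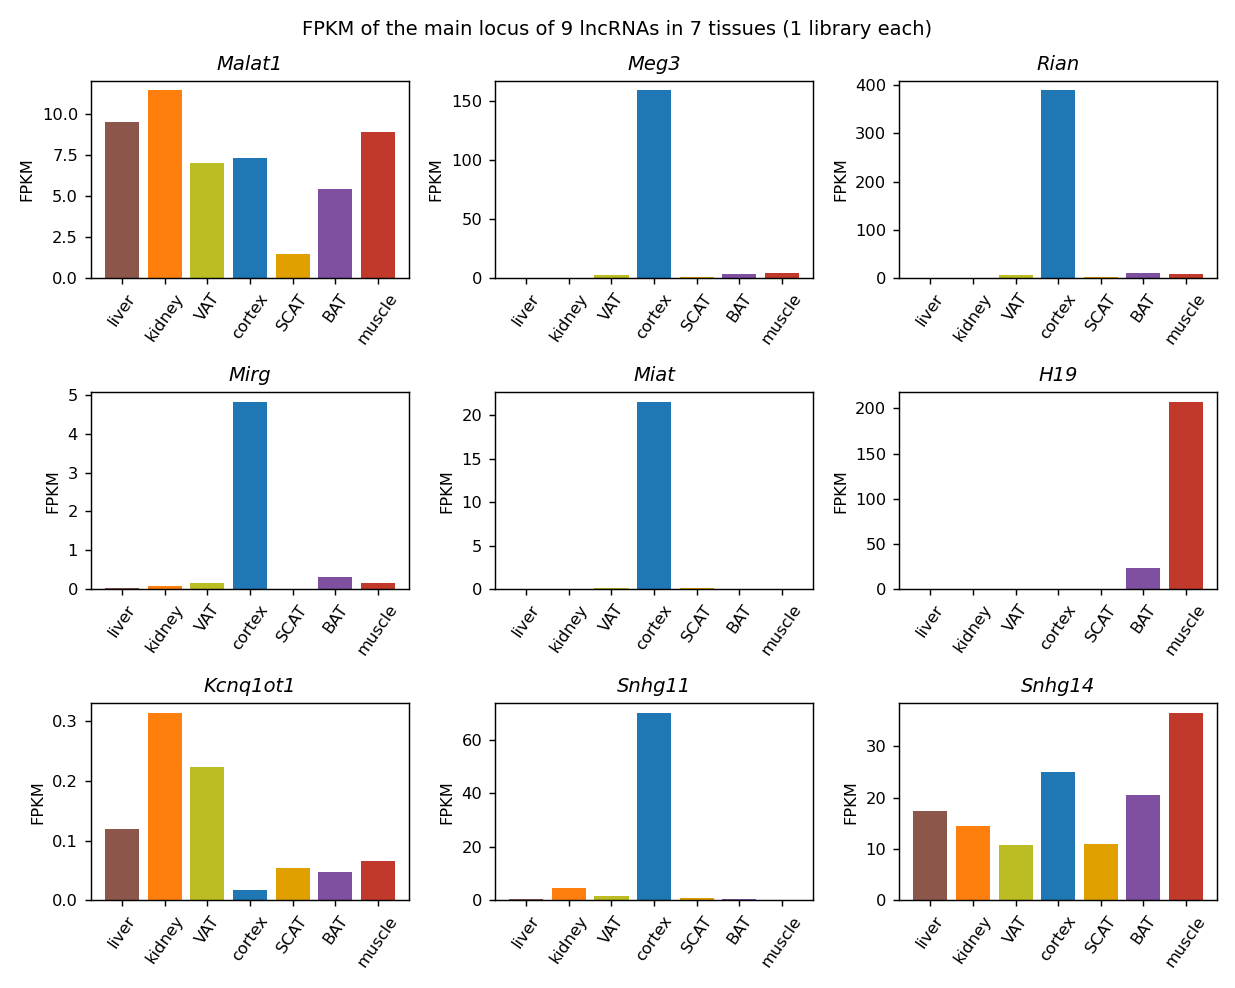
FPKM of the main locus of each of 9 lncRNAs (panels, each with its own linear axis from 0) in the 7 tissue libraries (bars, 1 library each, no error). Meg3, Rian, Mirg, Miat and Snhg11 stand out in cortex and H19 in muscle, while Malat1 and the Snhg14 main locus are present in every tissue and Kcnq1ot1 stays below 1 FPKM.

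Markers of the labelled tissues were checked beside these levels. The 5 neuron markers summed to 519 FPKM in cortex and to at most 1.21 FPKM elsewhere, and all 5 were enriched in cortex. The oligodendrocyte markers summed to 254.3 FPKM in cortex and at most 2.01 elsewhere, and the astrocyte markers to 216.4 in cortex and 43.6 in liver, the next library. The nephron markers summed to 1484 FPKM in kidney and at most 0.553 elsewhere, the brown adipocyte markers to 7549 in BAT and at most 67.5 elsewhere, and of the muscle fibre markers Ckm had 8592 FPKM in muscle and 166.0 in BAT, and Mylpf 5595 in muscle and 81.9 in BAT, the next library for both. Of the hepatocyte markers, Apoa1 (2521 FPKM) and Cyp2e1 (4606 FPKM) were enriched in liver and Alb has no value there, while VAT had 252.7 FPKM of Alb, 295.5 of Cyp2e1 and 17.7 of Apoa1. The white adipocyte markers summed to 484.3 FPKM in VAT, 211.0 in SCAT and 673.1 in BAT, and to at most 25.2 elsewhere. The VAT library carries epididymis markers (Crisp1 1386 FPKM, Lcn5 1119 FPKM and Adam7 134.4 FPKM, with Lcn9 at 0) and epithelial markers (Krt14, Krt5 and Krt19, summed 11.9 FPKM against at most 1.49 elsewhere), and the SCAT library carries lymphocyte markers (summed 89.5 FPKM against at most 2.80 elsewhere) and pancreatic acinar markers (92.9 FPKM against at most 8.82). The part of these cells in the values below was not tested. In bulk tissue, fewer cells of a type and less RNA per cell cannot be told apart.

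Promoter windows from 250 bases before to 50 after an annotated start are held for 8 of the 10 lncRNAs in the RefSeq table of GRCm38.p6 (9 windows, 2 of them for Meg3), and those of the 5 lncRNAs enriched in cortex are shown because these lncRNAs had their highest level in the same library. Each reads 5′ to 3′ on the strand of the gene. Capitals mark exact matches, on either strand, to the cAMP response element TGACGTCA, the TATA box TATAAA, the CCAAT box CCAAT, the Sp1 site GGGCGG, the E-box CACGTG, the small MAF element part TGCTGA or the GC repeat GCGCGC. No match of one of these motifs to another overlaps in the windows shown, but the repeat GCGCGC overlaps itself in Snhg11 and the TATA box, read on both strands, overlaps itself in Meg3.
Meg3, chr12:109540746-109541045 (+): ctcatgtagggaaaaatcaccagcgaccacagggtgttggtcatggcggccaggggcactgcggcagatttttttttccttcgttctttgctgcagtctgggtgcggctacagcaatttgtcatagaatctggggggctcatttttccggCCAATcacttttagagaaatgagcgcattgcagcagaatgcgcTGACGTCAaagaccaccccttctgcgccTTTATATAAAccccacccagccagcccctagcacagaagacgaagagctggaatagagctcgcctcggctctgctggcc
Rian, chr12:109603695-109603994 (+): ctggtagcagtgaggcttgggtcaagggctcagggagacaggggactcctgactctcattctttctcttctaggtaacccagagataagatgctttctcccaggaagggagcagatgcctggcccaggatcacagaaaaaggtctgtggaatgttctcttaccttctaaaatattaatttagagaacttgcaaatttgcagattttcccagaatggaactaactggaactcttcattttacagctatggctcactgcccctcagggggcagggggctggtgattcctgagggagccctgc
Mirg, chr12:109734731-109735030 (+): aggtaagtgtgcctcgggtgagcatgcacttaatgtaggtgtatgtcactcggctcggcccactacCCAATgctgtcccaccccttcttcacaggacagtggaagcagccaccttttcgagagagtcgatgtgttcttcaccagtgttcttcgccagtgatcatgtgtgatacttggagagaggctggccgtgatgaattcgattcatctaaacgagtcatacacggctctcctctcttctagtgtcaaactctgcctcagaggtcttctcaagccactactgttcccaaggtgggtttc
Miat, chr5:112228899-112229198 (-): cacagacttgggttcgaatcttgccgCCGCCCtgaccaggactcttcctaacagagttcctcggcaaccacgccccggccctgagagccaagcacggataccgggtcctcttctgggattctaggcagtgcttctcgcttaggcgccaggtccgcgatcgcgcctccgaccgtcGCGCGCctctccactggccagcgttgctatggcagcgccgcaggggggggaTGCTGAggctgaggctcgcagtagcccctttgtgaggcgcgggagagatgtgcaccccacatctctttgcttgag
Snhg11, chr2:158375463-158375762 (+): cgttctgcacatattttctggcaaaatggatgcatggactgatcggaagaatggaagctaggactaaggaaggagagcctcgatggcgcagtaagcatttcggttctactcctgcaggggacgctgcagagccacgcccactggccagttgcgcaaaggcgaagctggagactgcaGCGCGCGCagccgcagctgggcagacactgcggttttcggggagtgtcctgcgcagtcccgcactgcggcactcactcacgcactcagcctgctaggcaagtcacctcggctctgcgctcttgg

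The Meg3 window holds 1 cAMP response element, 2 matches to the TATA box and 1 CCAAT box. In the table, 1.79% of the 32851 windows of 300 bases hold the cAMP response element, 13.6% the TATA box and 37.4% the CCAAT box. The Mirg window holds 1 CCAAT box, and the Rian window holds no match. Miat has 1 Sp1 site (35.7% of all windows), 1 small MAF match (19.5%) and 1 GC repeat (13.6%), and Snhg11 has 2 overlapping GC repeats. The E-box, which 7.15% of all windows hold, was in none of the 9 windows. The cortex-enriched lncRNAs therefore do not all share any motif of this list. Their base composition was 49.3% G + C and 0 CpG in Rian, 51.3% and 10 in Mirg, 53.7% and 13 in Meg3, 60.0% and 21 in Snhg11 and 64.3% and 25 in Miat, beside a median of 52.7% and 7 CpG over all windows. The further windows are those of Malat1 (no match), Kcnq1ot1 (3 CCAAT boxes and 3 small MAF matches), Snhg14 (2 CCAAT boxes) and a second Meg3 start (1 small MAF match). A match is a description of these letters and shows no binding.

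The loci of 3 lncRNAs are merged with the names of 12 microRNA genes (1 in H19, 2 in Meg3 and 9 in Mirg), for which the RefSeq table gives 22 mature sequences with 22 different seeds. The libraries measured the long transcripts and not mature microRNAs. Shown are those of H19 and Meg3 and the 6 of Mirg whose seed is shared with another mouse microRNA, with the seed (bases 2 to 8) in capitals.
mmu-miR-675-5p (H19): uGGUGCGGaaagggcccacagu
mmu-miR-675-3p (H19): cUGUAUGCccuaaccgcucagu
mmu-miR-770-5p (Meg3): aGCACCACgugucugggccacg
mmu-miR-770-3p (Meg3): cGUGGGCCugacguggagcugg
mmu-miR-1906 (Meg3): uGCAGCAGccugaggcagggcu
mmu-miR-134-3p (Mirg): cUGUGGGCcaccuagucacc
mmu-miR-668-5p (Mirg): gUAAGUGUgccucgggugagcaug
mmu-miR-377-5p (Mirg): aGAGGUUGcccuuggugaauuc
mmu-miR-412-3p (Mirg): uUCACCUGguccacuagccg
mmu-miR-410-5p (Mirg): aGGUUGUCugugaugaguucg
mmu-miR-410-3p (Mirg): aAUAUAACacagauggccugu

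The seed of miR-134-3p is also that of miR-3620-5p, that of miR-668-5p is that of miR-467h, and that of miR-377-5p is that of miR-672-5p. miR-412-3p shares its seed with miR-1983, miR-410-5p with miR-494-5p, and miR-410-3p with miR-344d-3p and miR-344e-3p. The Mirg window printed above contains 3 of the 22 mature sequences, both arms of miR-668 and miR-485-3p, so that this annotated start lies among the microRNAs it hosts.

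Meg3, Rian and Mirg are neighbours on chromosome 12, in this order on the plus strand, and all had their highest level in cortex. Meg3 (ENSMUSG00000021268, annotated at chr12:109541001-109571726) is an lncRNA studied as a suppressor of cell growth. Its locus, which also carries the names Gm27300, Mir1906-1 and Mir770, had 158.9 FPKM in cortex, 4.25 in muscle, 3.38 in BAT, 3.04 in VAT, 1.06 in SCAT, 0.338 in liver and 0.325 in kidney. Cortex lay 37.4-fold above muscle (log2 ratio 5.19 with the added 0.1), and liver and kidney were nearly alike at the low end. Rian (chr12:109603940-109661716) is the host of a large cluster of C/D small nucleolar RNAs, and its locus carries the further names Gm23508, Gm24895, Gm26922 and Gm27350. Rian had 388.5 FPKM in cortex, 11.7 in BAT, 9.11 in muscle, 6.46 in VAT, 1.81 in SCAT, 0.928 in liver and 0.320 in kidney. It was the 27th of the 19087 named genes by FPKM in the cortex library, and Meg3 the 122nd. The cortex level of Rian was 33.2-fold above BAT (log2 ratio 5.04).

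Mirg (chr12:109729764-109749460) is the host of a microRNA cluster at the far end of the region. The names merged with it are Mir134, Mir3072, Mir369, Mir377, Mir382, Mir410, Mir412, Mir485 and Mir668. Mirg had 4.82 FPKM in cortex, 0.327 in BAT, 0.167 in muscle, 0.150 in VAT, 0.0802 in kidney, 0.0292 in liver and 0.0126 in SCAT. Only the cortex library was above 1 FPKM, at a log2 ratio of 3.53 over BAT. A further 5 microRNA names within Mirg (Mir154, Mir409, Mir453, Mir496a and Mir541) have loci of their own, all listed at 0 in every tissue. Within Rian, Mir341 and Mir370 are listed at 0, and Mir1188 has a locus at 0 and another, on the opposite strand, with 6.86 FPKM in cortex and at most 0.181 elsewhere.

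The 3 lncRNAs kept different proportions. Rian was 2.45-fold above Meg3 in cortex (log2 ratio 1.29), and in the other tissues its log2 ratio to Meg3 ran from -0.02 in kidney to 1.76 in BAT. Kidney was the single tissue in which Rian was not above Meg3. Mirg was below Meg3 in every tissue, with a log2 ratio of -5.01 in cortex, where both were highest, and of -1.24 in kidney and -1.76 in liver, where the added 0.1 FPKM exceeds the level of Mirg itself. Without the added 0.1, the plain ratio of Mirg to Meg3 ran from 0.0119 in SCAT to 0.247 in kidney, with 0.0304 in cortex. The order of the tissues was also not the same: muscle came next to cortex for Meg3, and BAT for Rian and Mirg.

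Other genes of the Dlk1-Dio3 region were Begain, Dlk1, Rtl1 and Dio3, and 2 of these 4 were enriched in cortex, beside 8.34% of all named genes. Rtl1, a gene derived from a retrotransposon and placed between Meg3 and Rian on the minus strand, had 30.5 FPKM in cortex, 0.840 in muscle, 0.668 in VAT, 0.520 in BAT, 0.159 in SCAT, 0.0954 in liver and 0.0345 in kidney. Its tissue order is close to that of Meg3, and its log2 ratio in cortex was 5.02. Begain, which encodes a protein of the synapse, had 3.88 FPKM in cortex and at most 0.0967 elsewhere, from a locus on the strand opposite to its annotation. Dlk1, which encodes an inhibitor of adipocyte differentiation, was highest in BAT (0.892 FPKM) and had 0.274 in cortex. Dio3, an enzyme that inactivates thyroid hormone, had 1.49 FPKM in cortex and 0.539 in VAT, a log2 ratio of 1.32, also from a locus on the opposite strand. The median log2 ratio of the 4 genes in cortex to the mean of the other tissues was 4.03, and 4.90 over the 3 that reached 1 FPKM in any tissue, beside -0.27 for all named genes with 1 FPKM in any tissue.

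**Figure D2:**
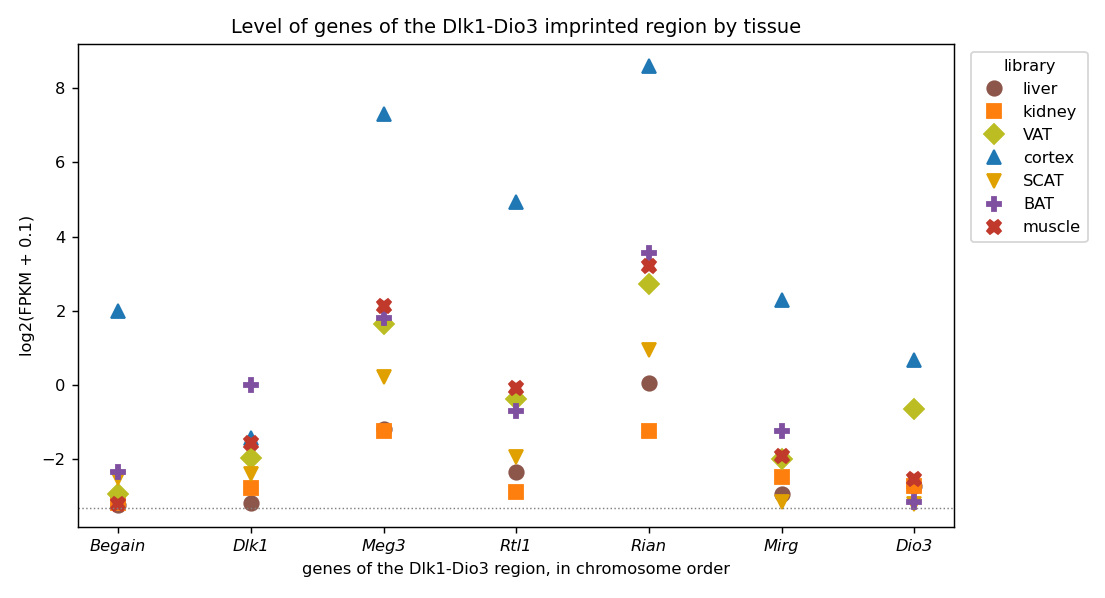
log2(FPKM + 0.1) of 7 genes of the Dlk1-Dio3 region (x axis, in chromosome order) in each tissue library (symbols, 1 library each); the dotted line is 0 FPKM. Cortex is the highest library for each gene except Dlk1, which is highest in BAT, and liver and kidney are among the lowest for Meg3, Rtl1 and Rian.

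Miat (chr5:112213228-112229395, minus strand), also known as Gomafu, is a nuclear RNA of neurons that binds splicing factors. Its locus carries the further names Gm27357, Gm27627, Gm27882 and Gm27998. Miat had 21.6 FPKM in cortex and 0.157 in SCAT, 0.154 in VAT, 0.0773 in kidney, 0.0649 in muscle, 0.0440 in BAT and 0.00436 in liver. The log2 ratio of cortex over SCAT was 6.40, the largest among the main loci, and tau was 0.996. Of the splicing factors Sf1, Qki, Celf3 and Srsf1, Qki has no locus under this name. None of the other 3 was enriched, beside 23.0% of all named genes enriched in any tissue. Celf3 came nearest, with 12.3 FPKM in cortex and 4.67 in kidney (log2 ratio 1.38), while Sf1 ranged from 9.86 FPKM in cortex to 20.1 in liver.

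Snhg11 (chr2:158375638-158386145, plus strand) is a host of small nucleolar RNAs that RefSeq lists as an lncRNA and the Ensembl annotation as protein-coding. The name has 2 loci with the same bounds on opposite strands. The higher one lies on the minus strand, opposite to the annotation, and had 70.0 FPKM in cortex, 4.59 in kidney, 1.85 in VAT, 0.752 in SCAT, 0.688 in liver, 0.595 in BAT and 0.112 in muscle. The locus on the annotated strand had 27.7 FPKM in cortex, 2.73 in kidney, 1.57 in VAT, 0.321 in liver, 0.314 in SCAT, 0.308 in BAT and 0.194 in muscle. Both loci have cortex first, kidney next and VAT after it, with a log2 ratio of cortex over kidney of 3.90 on the minus and 3.30 on the plus strand. Of 16 other small nucleolar RNA host genes, 12 have a value, 11 reached 1 FPKM and 0 were enriched in any tissue under the 4-fold rule, which has no test, beside 23.0% of all named genes. Gas5 was the highest of them, from 42.1 FPKM in BAT to 109.0 in liver, and 0 of the 11 had their highest level in cortex, beside 20.7% of all named genes. The median log2 ratio of the 12 in cortex to the mean of the other tissues was -0.53, beside -0.27 for all named genes with 1 FPKM in any tissue.

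H19 (chr7:142575529-142578143, minus strand) is the maternally expressed RNA next to Igf2. The name has 2 loci on opposite strands with the bounds of the annotated gene. The higher one lies on the plus strand, opposite to the annotation, and had 207.4 FPKM in muscle, 23.6 in BAT, 0.624 in VAT, 0.552 in SCAT and 0.258 in liver, and is listed at 0 in kidney and cortex. The locus on the annotated strand, which also carries the name Mir675, had 63.5 FPKM in muscle, 5.11 in BAT, 0.239 in VAT, 0.101 in SCAT, 0.0276 in liver and 0.00453 in cortex, and is listed at 0 in kidney. On both strands muscle was first and BAT next, with a log2 ratio of 3.13 on the plus and 3.61 on the minus strand. Without the BAT library the ratio on the plus strand was 8.16, over VAT.

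The BAT level of H19 was 11.4% of that in muscle at the plus-strand locus, opposite to the annotation, which is used for all H19 shares here. Genes of muscle fibres in the same BAT library stood at 1.93% (Ckm), 1.46% (Mylpf) and 3.13% (the merged locus of Lsp1 and Tnnt3) of their muscle level, and the muscle-expressed lncRNA Nctc1 at 1.54%. Lrrc39 stood at 28.1%, but it was picked for its highest r with H19 over these same libraries, BAT included. In liver, Lrrc39 stood at 4.99% of its muscle level. The part of muscle fibres in the BAT value of H19 was not tested. In VAT, H19 stood at 0.301% of its muscle level, Nctc1 at 0.383%, Lsp1 and Tnnt3 at 0.295%, Mylpf at 0.154%, Ckm at 0.115% and Lrrc39 at 8.25%. In SCAT, H19 stood at 0.266%, Lsp1 and Tnnt3 at 0.716%, Nctc1 at 0.0394%, Mylpf at 0.0304%, Ckm at 0.0198% and Lrrc39 at 7.24%.

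In the H19-Igf2 region, the 6 other names make up 5 loci, of which 2 were enriched in muscle, beside 3.63% of all named genes. Their median log2 ratio in muscle to the mean of the other tissues was 2.15 over the 5 loci and 7.67 over the 3 that reached 1 FPKM in any tissue, beside 0.09 for all named genes with 1 FPKM. Lsp1 and the troponin gene Tnnt3 are 1 merged locus with 9815 FPKM in muscle and 307.5 in BAT. Nctc1, which lies in the same domain, had 32.0 FPKM in muscle and 0.492 in BAT, from a locus on the strand opposite to its annotation. Igf2 itself, a fetal growth factor, was low in all 7 tissues, from 0.00612 FPKM in liver to 0.807 in cortex, with 0.728 in muscle. The mitochondrial ribosome gene Mrpl23 had 37.6 FPKM in muscle and 19.6 in BAT and was not enriched, and Ins2 stayed at or below 0.0870 FPKM.

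Malat1 (chr19:5795690-5802672, minus strand) was present in every tissue. It had 11.4 FPKM in kidney, 9.53 in liver, 8.91 in muscle, 7.34 in cortex, 7.05 in VAT, 5.42 in BAT and 1.46 in SCAT. Kidney and liver, the first and next tissues, differ by 0.26 on the log2 scale, and without replicates their order cannot be told from the spread between animals. SCAT stood apart from the other 6, which lie between 5.42 and 11.4 FPKM. Malat1 has 1 locus, whose listed bounds are shared by 47 loci and span 355.0 kb, so that the bounds do not place its reads.

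On the opposite strand of Malat1 lies Gm37376, annotated at chr19:5801941-5802393 within Malat1. Its name is merged with that of the neighbouring gene Ltbp3, and the merged locus had 756.2 FPKM in muscle, 611.5 in kidney, 516.0 in liver, 341.5 in SCAT, 327.4 in cortex, 307.4 in BAT and 254.3 in VAT. These levels are 36.1-fold (VAT) to 233-fold (SCAT) those of the Malat1 locus. Ltbp3 and Gm37376 cannot be told apart in this locus. Strand is only inferred here, and whether reads of Malat1 are counted in this locus was not tested.

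Neat1 (chr19:5824708-5845478, minus strand) has 1 locus, merged with Gm27702. In 20 of its 21 comparisons between tissues the table gives this locus the status FAIL, cuffdiff's flag for a failed estimate, so no value is reported here. Transcripts of genes whose proteins reside in paraspeckles and nuclear speckles were measured. Of 12 genes of paraspeckle proteins, all 12 reached 1 FPKM in at least 1 tissue and 0 were enriched, beside 23.0% of all named genes enriched in any tissue. The RNA-binding protein Sfpq had from 26.4 FPKM in BAT to 53.0 in SCAT, its partner Nono from 23.3 in VAT to 32.7 in liver, and Pspc1 from 2.05 in muscle to 12.1 in cortex. Of 8 genes of nuclear speckle proteins 0 were enriched as well, with Son from 22.3 FPKM in VAT to 38.9 in muscle and Srrm2 from 4.84 in BAT to 17.4 in liver. The median log2 ratio in cortex to the mean of the other tissues was 0.27 for the paraspeckle list and 0.09 for the speckle list, beside -0.27 for all named genes with 1 FPKM in any tissue.

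Kcnq1ot1 (chr7:143203458-143296549, minus strand) silences genes of the paternal chromosome around Kcnq1. It had 0.313 FPKM in kidney, 0.223 in VAT, 0.119 in liver, 0.0662 in muscle, 0.0542 in SCAT, 0.0470 in BAT and 0.0169 in cortex. No tissue reached 1 FPKM, and at these levels the order is not interpreted. Kcnq1, a potassium channel on the other strand of the same stretch, had 7.03 FPKM in kidney, 4.21 in liver, 3.89 in VAT, 3.75 in muscle, 3.65 in BAT, 3.42 in SCAT and 3.16 in cortex. The locus named Kcnq1 was 17.4-fold (VAT) to 187-fold (cortex) above the one named Kcnq1ot1. Kcnq1ot1 is annotated with 1 exon, and single-exon names were mostly higher on the strand opposite to the annotation, as given below. Whether reads of Kcnq1ot1 are counted in the Kcnq1 locus was not tested. Of 10 genes of the region, Phlda2 was enriched in kidney (5.88 FPKM against at most 0.192 elsewhere, on the strand opposite to its annotation) and Th in muscle (1.5 FPKM). Among all named genes, 2.55% were enriched in kidney, 3.63% in muscle and 23.0% in any tissue. The median log2 ratio of these 10 genes in kidney to the mean of the other tissues was 0.54, and 0.55 over the 9 that reached 1 FPKM, beside -0.04 for all named genes with 1 FPKM. Cdkn1c, an inhibitor of the cell cycle that Kcnq1ot1 silences on the paternal copy, had 5.76 FPKM in BAT, 4.05 in muscle, 2.96 in VAT, 2.82 in kidney, 1.48 in SCAT, 0.724 in cortex and 0.625 in liver.

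Snhg14 (chr7:59307924-59975759, minus strand) is the longest of the 10, at 667.8 kb, and its far end runs antisense to Ube3a, the ubiquitin ligase gene of Angelman syndrome. The table splits it into 8 loci. The highest one shares its listed bounds with Ube3a and had 36.5 FPKM in muscle, 24.9 in cortex, 20.5 in BAT, 17.3 in liver, 14.4 in kidney, 11.1 in SCAT and 10.8 in VAT. Ube3a, on the other strand, had 74.1 FPKM in cortex, 52.3 in muscle, 42.1 in BAT, 37.2 in liver, 32.3 in kidney, 20.9 in VAT and 19.4 in SCAT. This locus named Snhg14 thus had a level in every tissue in which Ube3a did, 1.43-fold to 2.98-fold lower. Strand is only inferred here, and whether reads of Ube3a are counted in this locus was not tested.

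The other 7 Snhg14 loci had another pattern. Their cortex levels were 20.9 FPKM (merged with Gm22285), 6.97, 3.05, 2.62, 2.26, 0.0706 and 0.0137 (merged with Gm22128), and in the other tissues they had at most 0.10 FPKM. The highest of these 7 had a log2 ratio of 6.71 in cortex, so the tissue in which Snhg14 appears highest depends on the locus taken: muscle with the locus at Ube3a (log2 ratio 0.55 over cortex), and cortex without it or with all loci summed (log2 ratio 0.73). In the neighbouring Snrpn-Ube3a region, the 8 names make up 7 loci, of which 2 were enriched in cortex, beside 8.34% of all named genes. Their median log2 ratio in cortex to the mean of the other tissues was 0.49 over the 7 loci and 2.96 over the 4 that reached 1 FPKM, beside -0.27 for all named genes with 1 FPKM. Snrpn and Snurf, which are 1 merged locus at the start of the imprinted domain, had 221.0 FPKM in cortex and 30.6 in muscle. The growth suppressor gene Ndn had 116.9 in cortex and 18.7 in BAT, from a locus on the strand opposite to its annotation. Magel2, Mkrn3 and Peg12 stayed below 1 FPKM in all tissues.

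**Figure D3:**
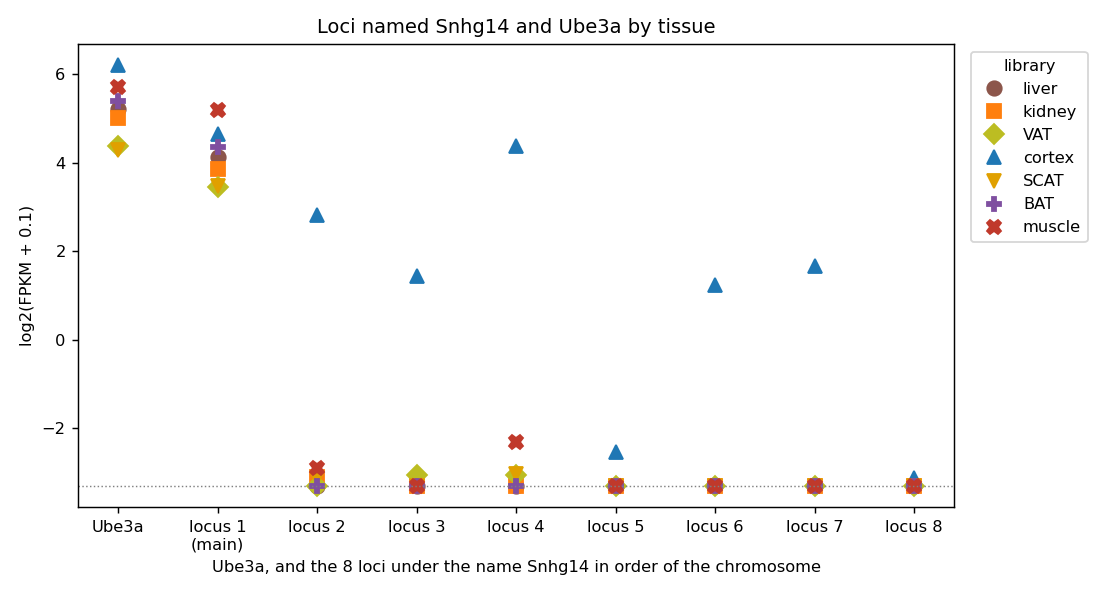
log2(FPKM + 0.1) of Ube3a and of the 8 loci named Snhg14 (x axis, in chromosome order) in each tissue library (symbols, 1 library each); the dotted line is 0 FPKM. Locus 1, at Ube3a, has values between 10.8 and 36.5 FPKM in all tissues, while loci 2 to 8 are above 1 FPKM in cortex alone or in no tissue.

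Loci on the opposite strand of Miat, H19 and Mirg had the same highest tissue as these lncRNAs, and those opposite Malat1 and the main Snhg14 locus did not. Kcnq1 and Kcnq1ot1 were both highest in kidney, but the order of Kcnq1ot1 is not interpreted. Gm26953, opposite Miat, had 25.4 FPKM in cortex and at most 0.257 elsewhere, beside 21.6 for Miat. The locus named Gm27483 and Gm27786, on the plus strand opposite the annotated H19, had 207.3 FPKM in muscle and 15.7 in BAT. The locus named H19 on the same plus strand had 207.4 and 23.6, and the one on the annotated strand 63.5 and 5.11. Gm24321, opposite Mirg, had 6.49 FPKM in cortex and at most 0.219 elsewhere. Gm44829, opposite the end of Snhg14, had 7.51 FPKM in cortex and at most 0.0355 elsewhere, while the main Snhg14 locus was highest in muscle. Strand here is read from the order of the loci in the table, which places 67.0% of all pairs of a locus and a name on the annotated strand. Among names with loci on both strands and 1 FPKM or more, the locus opposite to the annotation was the higher one for 3108 of 7888 names with several exons (39.4%) and for 174 of 179 names with single-exon transcripts alone (97.2%). How cuffdiff's library-type setting bears on this was not tested.

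**Figure D4:**
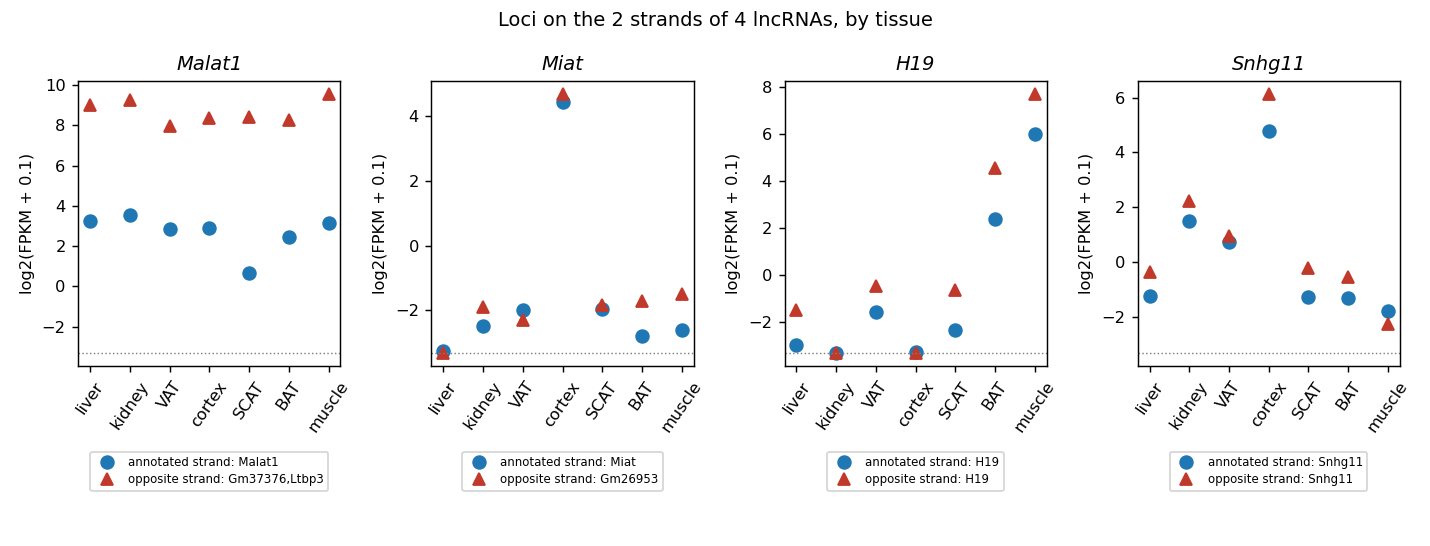
log2(FPKM + 0.1) in each tissue library of the locus on the annotated strand (circles) and of a locus on the opposite strand (triangles) for Malat1, Miat, H19 and Snhg11; the dotted line is 0 FPKM. The strands share the high tissue for Miat, H19 and Snhg11, and for Malat1 the opposite locus is higher in all 7 tissues.

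For each lncRNA with 1 FPKM in any tissue, the named genes with the most similar pattern over the 7 tissues were listed by Pearson's r of log2(FPKM + 0.1). With cortex far above the rest, a high r mainly says that another gene is also high in cortex: 107 of 19074 names reached r of 0.99 with Miat. The lists depend on this measure and on that library: of the 24 places (3 for each of 8 lncRNAs), 6 held with Spearman's rho, counting names tied with the third value, and 4 without cortex. None of the places of Rian or Mirg held in either. Over 7 tissues rho has many ties, and 36 names tied for or above the third value with Snhg14. The nearest to Miat were Nrip3 (r = 0.998, Spearman's rho = 1.00), the chromatin remodeller Chd5 (r = 0.997) and the neuronal kinase Brsk2 (r = 0.997). The nearest to Meg3 were Fez1 (r = 0.993), which acts in axon growth, and Rtl1 (r = 0.992), the neighbour of Meg3. For Rian the first 3 places were all the Meg3 locus under its merged names (r = 0.988). For Mirg they were Thbd (r = 0.988), Exoc6b (r = 0.985) and Mir376c (r = 0.984). Without cortex, over 6 tissues, r fell to 0.907 for Thbd with Mirg and was 0.986 for Fez1 with Meg3.

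The nearest to Snhg11 were the globin gene Ngb (r = 0.984), Arf3 (r = 0.982) and Gm14964 (r = 0.980), and Ngb kept an r of 0.997 without cortex. The nearest to H19 were the muscle gene Lrrc39 (r = 0.996), Gm42940 (r = 0.987) and Gm10603 (r = 0.987). Lrrc39 had 29.6 FPKM in muscle and 8.32 in BAT. The Snhg14 locus at Ube3a was nearest to the merged locus of 9430098F02Rik and Gm26551 (r = 0.993) and to Exd2 (r = 0.991), all with muscle first and cortex next. Malat1, which had the lowest tau of the 8 (0.422), had Pigs (r = 0.961), Erlec1 (r = 0.934) and AC125543.4 (r = 0.934).

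Of other imprinted lncRNAs, Airn was highest in muscle (5.50 FPKM, with 0.323 in cortex, on the strand opposite to its annotation), and Peg13 and Nespas stayed below 0.2 FPKM. Among 6 proteins that bind or control imprinted regions, 1 was enriched in cortex, beside 8.34% of all named genes. This was Zfp57, a zinc finger protein that keeps imprints, with 3.14 FPKM in cortex and 0.571 in VAT (log2 ratio 2.27). Ctcf, which binds the control region of H19, ranged from 4.26 FPKM in VAT to 7.65 in liver. Trim28, Dnmt1, Dnmt3a and Ezh2 were not enriched in any tissue, and the median log2 ratio of the 6 in cortex to the mean of the other tissues was -0.02, beside -0.27 for all named genes with 1 FPKM in any tissue.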

How the data were processed

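The authors removed adapters with flexbar and ribosomal RNA reads with Bowtie2 (2.2.9 in the submitters' processing notes), aligned to GRCm38 with STAR (2.6.0c), assembled and merged transcripts and compared tissues with cuffdiff (Cufflinks 2.2.1). The authors deposited FPKM for 94339 loci in 21 comparisons. The deposited log2 fold changes, the deposited test statistic (a score) and the deposited p-values and q-values are the authors' comparisons of single libraries and were not used. Settings for library type and scaling are not given in the sources used here. Without fragment counts, no interval or detection limit was computed. That the kit marks strand is per the labels. The table has no strand column, so strand was inferred from the listing, in which positions ascend 2 times along each chromosome.

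Names were split on commas. For a name with several loci, the one with the highest FPKM was the main one. Loci whose status was FAIL at least once (151) were dropped, and 225 zeros with the status LOWDATA were treated as missing, as were 35 names without a value in all tissues (Ckm, Alb and Myh4 among them). Of all names, 92.1% were found in the GENCODE M21 annotation of GRCm38. The lncRNAs and lists were chosen with earlier results of these data known. Named are the 10 lncRNAs with all loci and merged names, hosted microRNAs, opposite-strand names, list members, markers and, for each lncRNA, the 3 genes with the highest r, of which 1 is not reported here. Loci opposite to an lncRNA, single list members and Lrrc39 in BAT were picked after their values were seen. No test was possible with 1 library per tissue. The 4-fold rule was also run on simulated levels whose rise was set above it, which checks the code and not these libraries. A planned ratio of Neat1 to Malat1 was not computed. Python 3.11.15, pandas 2.3.3, NumPy 2.4.6 and matplotlib 3.10.9 were used. Alternatives covered pseudocount, scaling, minimum FPKM, fold, choice of locus, LOWDATA zeros and single libraries.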

Additional observations from a re-analysis of the deposited data

Results flagged for a closer look

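Loci on the strand opposite to a lncRNA, whose names are not among the 10, carried signal. The locus named Gm37376 and Ltbp3, opposite Malat1, had 756.2 FPKM in muscle and 254.3 or more in every tissue. Gm27483 and Gm27786, 1 locus opposite H19, had 207.3 FPKM in muscle. In cortex, Gm26953 opposite Miat had 25.4 FPKM, Gm44829 opposite Snhg14 had 7.51 FPKM and Gm24321 opposite Mirg had 6.49 FPKM. None of these levels has a replicate.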

How the results depend on the processing

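No paired analysis was possible because no tissue has a second library. The number of enriched lncRNAs (6) lay between 5 and 7 under 13 of 14 alternatives and was 1 without the cortex library, which by construction removes the 5 enriched in cortex. Some of the 13 could not remove a call: no minimum FPKM, the 2-fold rule, LOWDATA zeros kept, and VAT and SCAT or BAT left out. With a minimum of 5 FPKM, Mirg (log2 ratio 3.53) no longer counted. The number highest in cortex was 5 or 6 under the 13 alternatives that keep the cortex library. The highest tissue changed for Kcnq1ot1 with libraries scaled to an equal upper quartile (VAT, log2 ratio 0.023) and for Snhg14, to cortex, with all loci summed (0.73) or without the locus at Ube3a (6.71). For the other 117 of 121 ratios of single lncRNAs the highest tissue and the call were the same. Upper-quartile scaling shifted all genes by -0.38 (muscle) to 0.49 (SCAT) on the log2 scale, and median-ratio scaling by -0.15 (muscle) to 0.14 (cortex and SCAT). Of 84 ratios of Rian or Mirg to Meg3, 11 moved, all with another pseudocount. Of the 24 places given by Pearson's r, 6 held with Spearman's rho (names tied with the third value counted) and 4 without cortex. The omission of the locus at Ube3a and of libraries was chosen after seeing the data.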
